A study of Homo sapiens with 12 samples.

Results

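KDM2B peaks on the long arm of chromosome 22 (22q) were described in 7 human leukaemia cell lines, with the arm divided at BCR, the gene that fuses to ABL1 in the Philadelphia translocation. All peaks with chromosome 22 as their chromosome were taken from the 7 lists, and all lay on the long arm by the hg19 band table: 2313 peaks of 79473 in all. Each peak was put below the split, towards the centromere, or above it, towards the telomere, by its midpoint relative to position 23.6 Mb (hg19). The lines compared were K562 (chronic myeloid leukaemia in blast crisis, BCR-ABL1), SUP-B15 (acute lymphoblastic leukaemia of B-cell precursors, or B-ALL, BCR-ABL1), REH (B-ALL without the fusion) and 4 lines of T-cell leukaemia (T-ALL), JURKAT, SIL-ALL, HPB-ALL and DND41. Lineage and fusion status are background knowledge of the lines and are not in the labels, which give the line names. All lines were grown in IMDM with 10% FBS, with no other treatment in the labels, and chromatin was immunoprecipitated with a Millipore antibody to KDM2B. Input samples of K562, REH, SUP-B15, HPB-ALL and SIL-ALL are also in the labels and were not analysed here. Each line is an established cell line with 1 library and 1 list, so a difference between lines cannot be told apart from a difference between libraries.

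KDM2B is a JmjC-domain demethylase whose CXXC zinc finger recognises unmethylated CpG dinucleotides and brings a variant Polycomb complex to CpG-rich promoters. In the Philadelphia translocation chromosome 22 breaks inside BCR and the part on the telomere side is exchanged with chromosome 9, so that BCR sequence on the centromere side becomes joined to ABL1. K562 is known to carry extra copies of the fusion, and SUP-B15 carries the fusion with the break in the first intron of BCR. Copy number was not analysed here.

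Because CpG density is what the CXXC domain reads, the promoter of BCR is shown with that of IGLL1, the surrogate light chain gene among the nearest protein-coding genes after BCR. Both are RefSeq promoters of GRCh38.p14, from 250 bases before to 50 bases after the gene start, 5′ to 3′ on the gene's own strand (plus for BCR, minus for IGLL1), with each CpG (searched as CG, the same on both strands) in capitals.
BCR: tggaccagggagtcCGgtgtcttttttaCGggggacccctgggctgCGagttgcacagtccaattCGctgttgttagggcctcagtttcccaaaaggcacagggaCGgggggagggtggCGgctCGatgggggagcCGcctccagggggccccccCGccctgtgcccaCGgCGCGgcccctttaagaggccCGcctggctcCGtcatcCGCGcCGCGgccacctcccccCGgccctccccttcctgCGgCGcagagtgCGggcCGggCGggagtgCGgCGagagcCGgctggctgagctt
IGLL1: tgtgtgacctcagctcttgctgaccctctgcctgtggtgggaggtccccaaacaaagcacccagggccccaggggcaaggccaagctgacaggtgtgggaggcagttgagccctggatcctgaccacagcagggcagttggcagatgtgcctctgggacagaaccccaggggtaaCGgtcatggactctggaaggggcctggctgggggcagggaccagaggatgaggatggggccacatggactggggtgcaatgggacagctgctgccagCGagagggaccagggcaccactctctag
The BCR promoter held 27 CpG and 71.7% G and C, and 28.2% of the 35116 promoters of 300 bases in the table held at least as many CpG. The IGLL1 promoter held 2 CpG, with 18.2% of promoters holding as few. The median was 14, and 96.0% of promoters held at least 1. The genes RSPH14, GNAZ and RAB36 come just before BCR in that table. The lists are in hg19, another build, so no peak was assigned to a promoter or gene, and genes named with a band are background on the band.

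In K562 most peaks of the chromosome lay below the split, and in each of the other lines most lay above it. K562 had 164 of its 207 chromosome 22 peaks below the split, 79.2% (Wilson 95% interval 73.2 to 84.2%). REH had 53 of 301 (17.6%, 13.7 to 22.3%) and SUP-B15 37 of 226 (16.4%, 12.1 to 21.8%). K562 was thus the highest and SUP-B15, the other BCR-ABL1 line, the lowest of the 7. Among T-ALL lines the share was 26.2% in JURKAT (90 of 344; 21.8 to 31.1%), 21.6% in HPB-ALL (66 of 305; 17.4 to 26.6%), 19.1% in DND41 (79 of 414; 15.6 to 23.1%) and 17.2% in SIL-ALL (89 of 516; 14.2 to 20.7%). The K562 interval overlapped no other, whereas the interval of SUP-B15 overlapped that of REH and of all 4 T-ALL lines except JURKAT. For scale, 104 protein-coding genes of chromosome 22 come before BCR in the RefSeq table and 346 after it, 23.1% before. Read depth behind the lists is unknown, and the intervals cover counting error only. Copy number and depth were not measured, and their part in the K562 share was not tested.

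**Figure D1:**
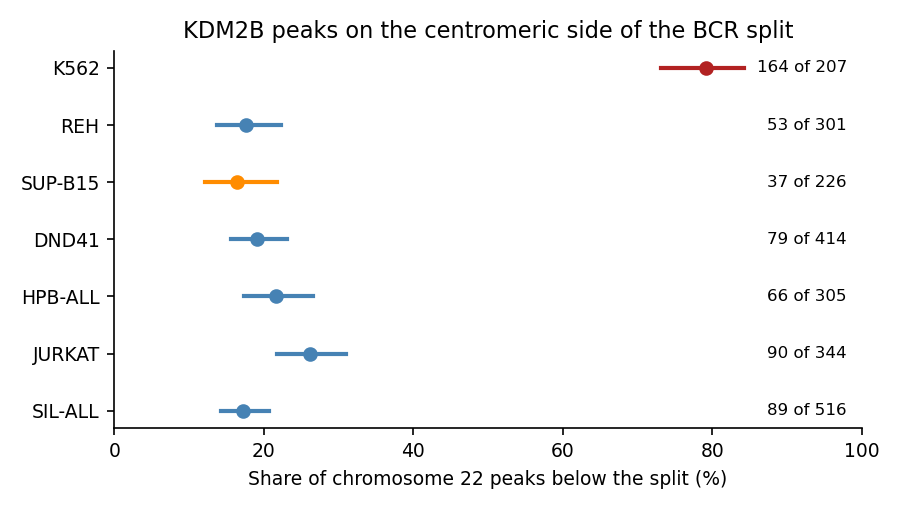
Share of each line's chromosome 22 KDM2B peaks that lie below the BCR split, in percent, with Wilson 95% intervals; K562 in red, SUP-B15 in orange, lines without BCR-ABL1 in blue. K562 stands at 79.2% and the other lines between 16.4 and 26.2%.

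The 2 BCR-ABL1 lines did not move together. Their mean share below the split was 47.8%, against 20.3% in the 5 other lines, a difference of 27.5 percentage points with a two-sided exact permutation p = 0.286 from all 21 ways of dividing 7 lines into 2 and 5 (Benjamini-Hochberg adjusted 0.571 over 8 comparisons; smallest possible p 0.0476). Without K562 the difference was -3.98 points. SUP-B15 alone gives that value.

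The share of the list on the whole chromosome in K562 lay inside the range of the other lines. The chromosome held 3.48% of all peaks in K562 (Wilson 95% interval 3.05 to 3.98%), 3.70% in REH (3.31 to 4.13%), 3.0% in SUP-B15 (2.64 to 3.41%) and 2.32 to 3.37% in the T-ALL lines. The difference between BCR-ABL1 and other lines was 0.333 points (exact permutation p = 0.476, two-sided; adjusted 0.571), and it was 0.188 with lists of equal length and 0.170 with peaks within 500 bp merged. The K562 and REH intervals overlapped, although their peaks were placed differently along the chromosome. On arm 9q, the arm of ABL1, K562 had the highest share, 4.70% (4.19 to 5.26%) against 2.21 to 4.0% in the other lines. On 21q, also the long arm of a small acrocentric chromosome, it had 1.75% against 1.21 to 2.60%.

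Along the chromosome the K562 peaks filled 3 neighbouring 2 Mb bins, of which the last, 22 to 24 Mb, holds the split. From 18 to 20 Mb K562 had 49 peaks, 0.825% of its list, against 0.174 to 0.222% in the other lines. From 20 to 22 Mb it had 66, or 1.11% against 0.119 to 0.236%. From 22 to 24 Mb it had 42, or 0.707% against 0.107 to 0.160%. These shares were 4.02, 5.39 and 5.43 times the median of the other 6 lines. In the first bin with peaks, 16 to 18 Mb, K562 had 7 peaks, 2.56 times that median. By band, 127 of the 207 K562 peaks lay in 22q11.21, the band of the T-box gene TBX1 and the adaptor gene CRKL, which is 61.4% of them against 11.1 to 19.5% in the other lines. A further 22 lay in 22q11.22, the band of the immunoglobulin lambda locus, 10.6% against 0.581 to 2.21%.

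Beyond the split K562 was sparse in most bins. The exceptions were 38 to 40 Mb, with 10 peaks at 0.545 times the median of the other lines, and 44 to 46 Mb, with 4 at 0.854 times. K562 had 1 peak each from 24 to 26, 26 to 28 and 28 to 30 Mb, 3 from 30 to 32 Mb and none from 32 to 36 Mb. The other lines had 5 to 27 peaks from 24 to 26 Mb and 13 to 38 from 30 to 32 Mb. As shares of the lists, these were 0.0664 to 0.176% against 0.0168% in K562, and 0.173 to 0.254% against 0.0505%. In the most telomeric bin, 50 to 52 Mb, K562 had 9 peaks, 0.151% of its list, and REH 67, 0.822%. Of the 17 bins of the chromosome with at least 20 peaks over the lists, K562 was at least 2 times the median of the other lines in 4, all of them below or across the split, and at most 0.5 times in 11, all above it. Over the 918 such bins of chromosomes 1 to 22 and X, K562 was at least 2 times the median in 9.26% and at most 0.5 times in 24.8%. The bins from 22 to 24 and 20 to 22 Mb ranked 4 and 5 among all 918 by this ratio, and the bin from 18 to 20 Mb ranked 12. The first rank was a bin of chromosome 9, 132 to 134 Mb, on the arm of ABL1, with 74 K562 peaks at 6.35 times the median.

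**Figure D2:**
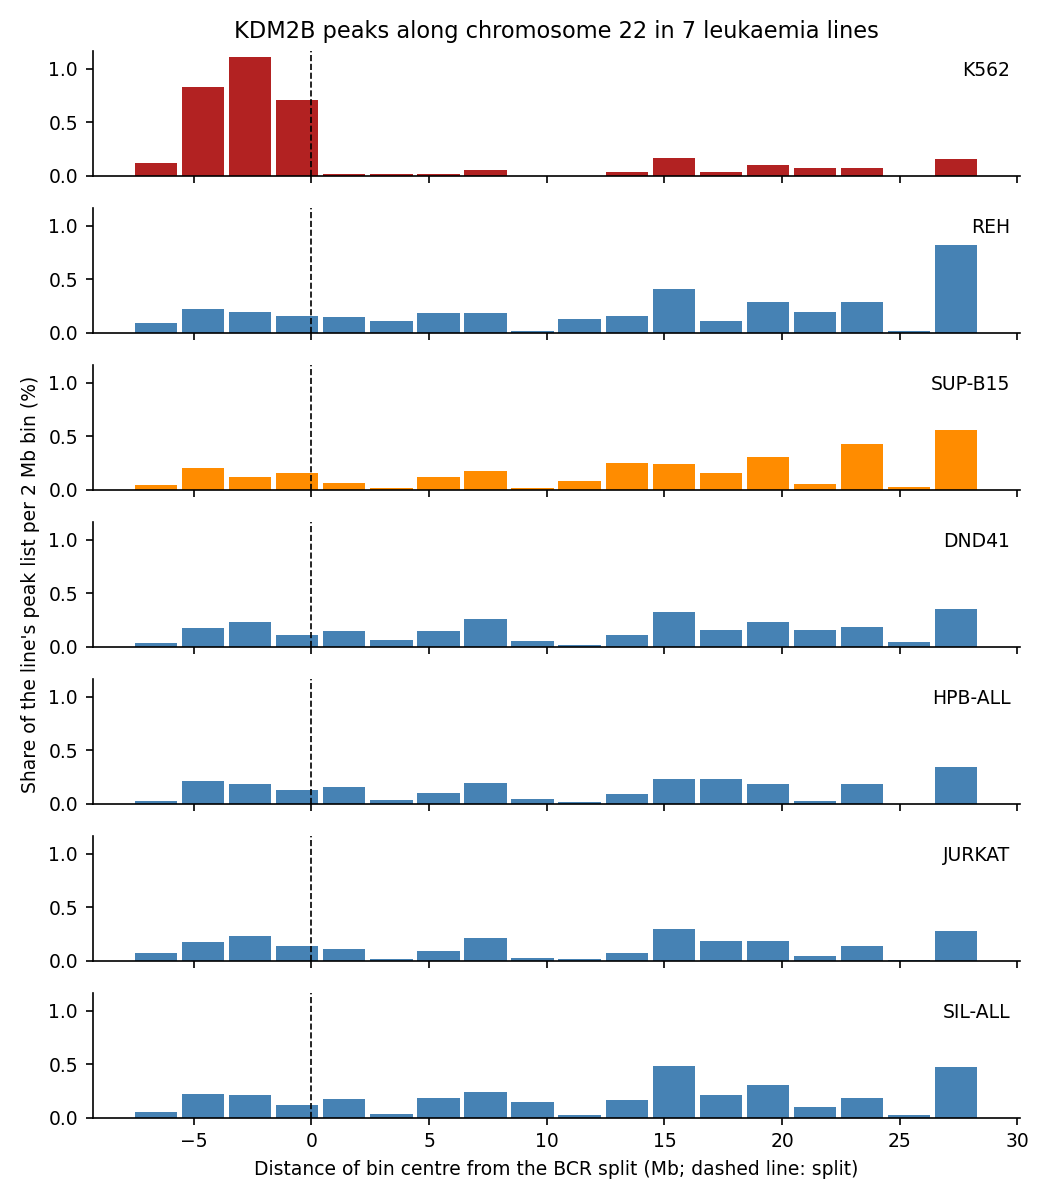
Share of each line's KDM2B peak list, in percent, in each 2 Mb bin of chromosome 22, by distance of the bin centre from the BCR split in Mb; dashed line, split; K562 red, SUP-B15 orange, others blue. The 3 tall K562 bars (0.825, 1.11 and 0.707%) lie below the split or, for the last, across it, and the other lines reach at most 0.236% in these bins.

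The other lines departed from one another in single bins, mostly above the split. REH was at least 2 times the median of the other lines in 4 of the 17 bins and at most 0.5 times in 1, and the genome-wide values were 6.43% and 23.5%. Its highest ratios were 6.84 from 34 to 36 Mb, with 10 peaks, and 4.59 from 26 to 28 Mb, with 9. SUP-B15 was high in 3 bins and low in 3 (genome-wide 7.95% and 21.5%). It was high from 34 to 36, 36 to 38 and 46 to 48 Mb, where it had 32 peaks at 2.35 times the median, and low from 24 to 28 and 32 to 34 Mb. DND41 was high in 3 bins and low in none (genome-wide 4.9% and 6.54%), among them 44 to 46 Mb with 24 peaks. HPB-ALL was high in 1 and low in 2 (9.8% and 8.71%), with 3 peaks from 44 to 46 Mb. JURKAT was high in none and low in 2 (8.28% and 4.36%). SIL-ALL was high in 1 and low in none (5.34% and 7.95%): from 32 to 34 Mb it had 22 peaks, 0.144% of its list and 7.15 times the median, where the other lines had 0 to 8.

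K562 and SUP-B15 lay together on one side of all other lines in 2 of the 17 bins. Both were the lowest, from 24 to 26 Mb (1 peak in K562 and 5 in SUP-B15, 0.0168% and 0.0664% of their lists, against 0.115 to 0.176% in the others) and from 30 to 32 Mb (0.0505% and 0.173% against 0.184 to 0.254%). In both bins the exact permutation p was 0.0476, the smallest possible, and the adjusted value over the 17 bins was 0.405, so no bin passed. No bin had both lines above all others. With 1 Mb bins the number on one side was 6, as a share of chromosome 22 peaks 4, without K562 6, without REH 5 and without SUP-B15 15. Over the genome both lines were above all others in 6.54% of bins and below all others in 7.41%. The bin from 24 to 26 Mb is the first that lies wholly above the split. REH, the B-ALL line without the fusion, had 12 peaks in it, 0.147% of its list, within the range of the T-ALL lines.

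K562 peaks were dense up to the split and absent just after it. In the 0.5 Mb below it K562 had 23 peaks covering 73.8 kb, and in the 0.5 Mb above it none. The other lines had 3 to 7 peaks below, covering 0.904 to 2.77 kb, and 2 to 8 above, covering 0.409 to 1.93 kb. SUP-B15 had 7 below and 2 above, REH 6 and 2. The last K562 peak below the split ended at 23566830, 33.2 kb before it, and the next K562 peak started at 25800709. In the 2.23 Mb between them REH had 11 peaks, SUP-B15 7, DND41 and HPB-ALL 21 each, JURKAT 18 and SIL-ALL 28. The stretch was the fourth-longest without a peak in K562 on this chromosome, and the longest, 7.27 Mb, lay further above the split. In the other lines the peaks on either side of the split were 86.8 kb (HPB-ALL) to 397 kb (REH) apart, and 350 kb in SUP-B15. HPB-ALL was the line with peaks closest above the split, the first starting at 23611438.

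**Figure D3:**
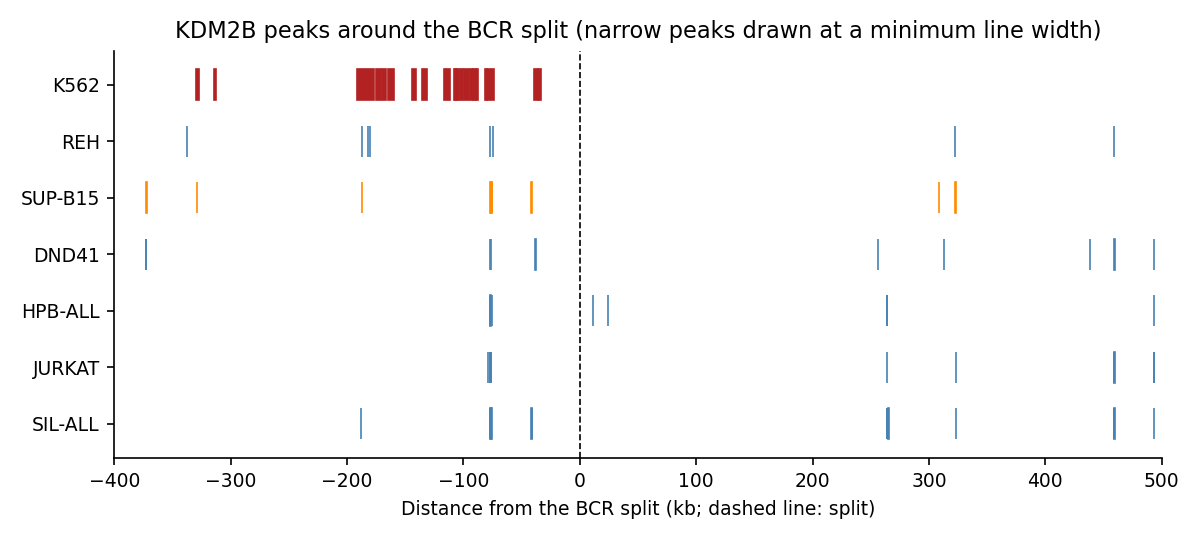
KDM2B peaks of the 7 lines from 400 kb below to 500 kb above the BCR split (dashed line), by distance in kb; each bar is a peak, and narrow peaks are drawn at a minimum line width. K562 (red) has 23 peaks in the 0.5 Mb below the split and none in the 0.5 Mb above it, while every other line has peaks on both sides.

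One region near the split, joined by a wide K562 peak, held a peak of all 7 lines. It spanned 23520580 to 23526482 on chromosome 22 (hg19, band 22q11.23), 73.5 kb below the split at its nearer edge. In K562 it was a single peak of 5903 bp with a score of 1594.88, the second-highest of the 5942 in that list. Scores are the authors' own values and are read only within a list. In HPB-ALL the best of 3 peaks there stood at percentile 96.6 of its list by score, in SIL-ALL at 93.7, in SUP-B15 at 83.4, in DND41 at 79.3, in REH at 77.8 and in JURKAT at 56.7. K562 and HPB-ALL thus ranked it highest and JURKAT lowest. The peaks covered 467 bp in REH, 665 bp in DND41, 904 bp in JURKAT, 1272 bp in SIL-ALL, 1294 bp in SUP-B15 and 1452 bp in HPB-ALL, all less than the K562 peak.

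Most other K562 peaks beside it belonged to K562 alone. Within 0.5 Mb of the split, 32 regions had a peak of K562, of SUP-B15 or of 2 or more lines. This rule admits regions of K562 alone but leaves out those of 1 line without BCR-ABL1, so the 32 are not all regions there. Over the chromosome 103 of 907 regions were of K562 alone. Of the 32, 23 held a K562 peak and 19 held no other. The widest was a K562 peak of 14443 bp from 23408393 to 23422835 (22q11.22). REH, SUP-B15 and SIL-ALL had narrower peaks in it. It was the widest peak of the K562 list. The region from 23270543 to 23272330 held peaks of K562 (score 59.96) and SUP-B15 (87.09) and of no other line. Above the split the regions of 3 or more lines lay from 23863739 to 23864330 (HPB-ALL, JURKAT and SIL-ALL), 24058978 to 24059314 (REH, JURKAT and SIL-ALL), 24059332 to 24059573 (DND41, JURKAT and SIL-ALL) and 24093201 to 24093727 (all 4 T-ALL lines). K562 and SUP-B15 had a peak in none of these 4. SUP-B15 had peaks above the split from 23908279 to 23908529, alone, and in a region from 23922390 to 23922859 that REH also had.

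K562 peaks below the split were also wide. Their median width was 1165 bp (quartiles 687 and 1951 bp), against 378 bp (311 and 623 bp) above the split and 552 bp in the whole K562 list. In the other lines the medians below and above the split were 187 and 204 bp in REH, 336 and 351 bp in SUP-B15, 269 and 252 bp in SIL-ALL, 264 and 214 bp in JURKAT, 261 and 261 bp in HPB-ALL and 210 and 202 bp in DND41. K562 peaks below the split were thus wider than those above by 787 bp, while in the other lines the difference ran from -16.5 to 50 bp. Over all lines the mean difference was 119 bp, in the direction of wider peaks below in 4 of 7 lines (exact sign-flip permutation p = 0.297, two-sided; adjusted 0.571; smallest possible p 0.0156), and without K562 it was 7.17 bp. With peaks within 500 bp merged it was 244 bp, in 5 of 7 lines (exact permutation p = 0.0781), and with lists of equal length 92.2 bp, in 2 of 7. Peaks below the split covered 263 kb in K562 and 11.5 to 32.3 kb in the other lines, and those above it 23.01 kb in K562 and 59.5 to 150 kb in the others. In bases covered, 91.9% of what K562 peaks covered on the chromosome lay below the split.

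**Figure D4:**
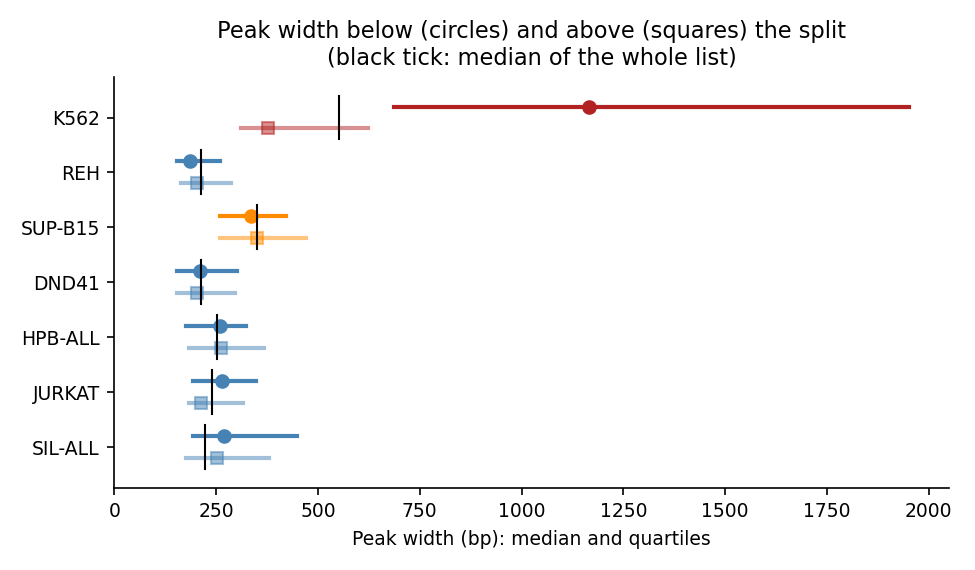
Median width of KDM2B peaks in bp, with quartiles, below (circles) and above (squares) the BCR split in each line; black ticks, median of the line's whole list. K562 peaks below the split (median 1165 bp) stand above the K562 list median of 552 bp and all other medians.

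In the K562 list 50 peaks were 3 kb or wider, and 17 of them lay on chromosome 22, all below the split. The other lists had 0 to 14 such peaks and none on this chromosome. Of all peaks, the chromosome held 3.48% in K562 and 2.32 to 3.70% in the other lists. None among 14 or fewer is near that share. Among 2 Mb bins with 20 or more K562 peaks, of which there were 47, a median K562 width of 1 kb or more was found in 3, or 6.38%. These were the chromosome 22 bins from 22 to 24 Mb (median 1875 bp, the widest) and 20 to 22 Mb (1039 bp), and the chromosome 9 bin from 132 to 134 Mb (1354 bp). The fourth was 18 to 20 Mb on chromosome 22, with 990 bp.

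Chromosome 22 peaks were wider in the BCR-ABL1 lines than in the others, with a mean of medians of 654 against 229 bp. The difference of 425 bp had the smallest possible exact permutation p, 0.0476 (two-sided), which did not pass adjustment over the 8 comparisons (0.381). With lists of equal length it was 339 bp and with peaks within 500 bp merged 558 bp, each with exact permutation p = 0.0952. With a common score floor it was 689 bp with the same exact permutation p of 0.0476, and without K562 it was 119 bp. It is not particular to the chromosome: K562 and SUP-B15 also had the widest peaks in their whole lists, with medians of 552 and 350 bp against 213 to 253 bp. Set against the rest of its own list, chromosome 22 was wider by 415 bp in K562 and differed by -14.0 to 33.5 bp in the other lines (mean 59.8 bp, exact sign-flip permutation p = 0.50, two-sided; adjusted 0.571), and the mean was 92.9 bp with a common score floor.

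Of the 10 highest-scored peaks of the K562 list, 3 lay on chromosome 22 below the split. Its highest-scored peak was in 22q11.21, at 19704680 to 19712637 (7958 bp, score 2730.83). The peak of the all-line region beside the split was the second, and another in 22q11.21, at 19740784 to 19747495 (6712 bp, score 1365.04), was the seventh. Of the 100 highest-scored K562 peaks, 14 were on chromosome 22 below the split and none above it. Of all 5942 K562 peaks, 164 lay on the chromosome below the split and 43 above it. In the other lines 0 to 4 of the top 100 were on the chromosome, and none below the split. The chromosome held 2.32 to 3.70% of these lists. Below the split lay 37 to 90 peaks, in lists of 7533 to 15304, so these counts are near the shares of all peaks. The best peaks of the chromosome in the other lines lay in 22q13.33 in SUP-B15 (50354085 to 50356524, rank 13 of its list), DND41 (rank 13) and HPB-ALL (rank 3), in 22q13.2 in REH (42310596 to 42311358, rank 49) and SIL-ALL (41487044 to 41489179, rank 29), and in 22q13.1 in JURKAT (38597895 to 38598777, rank 207).

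By mean score percentile within the list, K562 peaks stood at 54.7 below and 43.4 above the split, and JURKAT peaks at 56.2 and 46.0. In the other lines the difference ran from -4.02 in SUP-B15 to 3.43 in SIL-ALL. The mean difference was 2.51 points, higher below in 4 of 7 lines (exact sign-flip permutation p = 0.359, two-sided; adjusted 0.571). It was 4.49 with peaks within 500 bp merged, 1.103 with a common score floor and -0.0290 with lists of equal length. Between the chromosome and the rest of the list it was -0.115 points (p = 0.859 in the same exact permutation scheme), and from -0.341 with lists of equal length to 0.509 with a common score floor.

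Merging peaks that overlapped by at least 1 bp gave 907 regions on chromosome 22, 210 below and 697 (76.8%) above the split. Of the 907, 348 (38.4%) held peaks of 2 or more lines, against 41.8% over the genome. All 7 lines had a peak in 18 regions, 1.98% (Wilson 95% interval 1.26 to 3.12%) against a genome-wide 2.44%, which lies inside that interval. With a 50% reciprocal overlap in place of 1 bp the number of such regions was 2, with lists cut to equal length 6, with a common score floor 4, and without K562 it was 33. Below the split there were 8 such regions among 210 (3.81%, 1.94 to 7.34%) and above it 10 among 697 (1.43%, 0.781 to 2.62%). Wide K562 peaks below the split can join peaks of other lines that do not overlap, as in the region beside the split. The part of K562 peak width in these counts was not tested.

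Among regions with peaks of at least 4 other lines, K562 had a peak in nearly all below the split and in few above it. Regions were merged over all 7 lists, K562 included. A wide K562 peak can thus join separate peaks of other lines into 1 region, which then holds K562 by construction. Of 27 regions below the split with a peak in at least 4 of the other 6 lines, 26 also had a K562 peak, 96.3% (81.7 to 99.3%). Of 100 such regions above it, 18 had one, 18.0% (11.7 to 26.7%), and over the genome 46.4% of such regions were also in K562. The same measure in SUP-B15 was 17 of 33 below (51.5%, 35.2 to 67.5%) and 55 of 91 above (60.4%, 50.2 to 69.9%), with 55.6% over the genome, which lies inside both intervals. REH had 46.9% below (30.9 to 63.6%) and 61.9% above (51.2 to 71.6%), with 46.4% over the genome, which lies under the interval above the split. The T-ALL lines had 69.7 to 89.3% below and 77.5 to 93.0% above, with genome-wide values of 85.6% in DND41, 82.9% in JURKAT, 81.8% in SIL-ALL and 77.8% in HPB-ALL. The genome-wide value lay inside both intervals in these lines except SIL-ALL, where it lay under the interval above the split (84.6 to 97.0%). This measure was chosen after the lists were seen and was given no test. Its direction in K562 turned when overlap had to be 50% reciprocal, with 1 of 15 sites below and 8 of 57 above, a difference of -7.37 points in place of 78.3. K562 peaks below the split had a median width of 1165 bp, and peaks narrower than 0.5 times a K562 peak cannot meet that rule. The part of peak width in the turn was not tested.

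**Figure D5:**
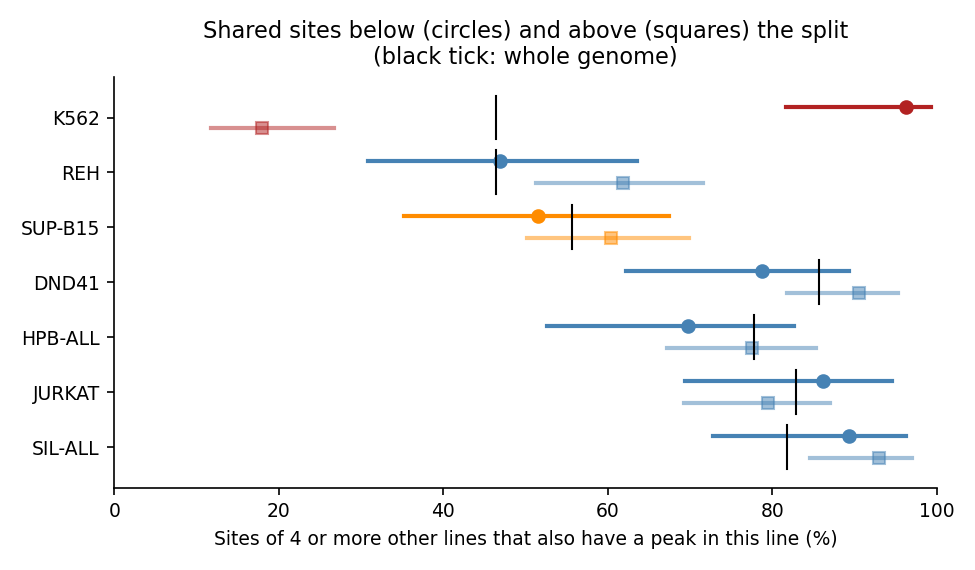
Share, in percent with Wilson 95% intervals, of chromosome 22 regions with a peak in 4 or more of the other 6 lines that also hold a peak of the named line, below (circles) and above (squares) the BCR split; black ticks, the same share over the genome. K562 has 96.3% below and 18.0% above, on either side of its genome-wide 46.4%, whereas in the other lines the intervals of both sides overlap.

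The regions that lacked 1 line showed the same division. In 16 regions of the chromosome all lines except K562 had a peak, all 16 above the split, where 76.8% of all 907 regions lay. Regions lacking 1 line, or of 1 line alone, were not counted over the genome, and the K562 list is the shortest. REH alone was lacking in 7 regions, 6 of them below, and SUP-B15 alone in 6, 5 of them below. DND41 and SIL-ALL were lacking alone in none, and HPB-ALL and JURKAT in 2 each, all above. Conversely, 103 regions held a peak of K562 alone, 95 below and 8 above, where the regions of any kind numbered 210 and 697. Only SIL-ALL had more regions of its own on the chromosome (143), and 133 of these lay above the split, as did 87 of 97 in REH, 54 of 55 in SUP-B15 and 74 of 79 in DND41.

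Because of these regions of its own, K562 also had the lowest share of shared peaks below the split. Of its 164 peaks there, 69 (42.1%) lay in a region of 2 or more lines, against 81.4% above. In the other lines the share was 81.1 to 97.3% below and 64.9 to 87.0% above, and in all 6 it was higher below. Over all lines the mean difference was 7.42 points (exact sign-flip permutation p = 0.375, two-sided; adjusted 0.571). With 50% reciprocal overlap it turned to -1.57 points, with a mean of 48.2% below and 49.8% above.

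K562 and SUP-B15 shared 39 regions of the chromosome with a peak of both, 19.8% of the K562 regions and 20.9% of those of SUP-B15. Of these, 2 were theirs alone, the one from 23270543 to 23272330 and one from 17850278 to 17851021 (22q11.1). The other pairs with K562 had 0 (HPB-ALL) to 5 (JURKAT) regions alone, so 2 lies within their range. Pairs without K562 had 0 to 25, with 18 in REH and SUP-B15 (1 below the split) and 25 in JURKAT and SIL-ALL. Pairs differ in list length, and such regions were not counted over the genome. K562 shared 48 regions with REH and 46 to 67 with single T-ALL lines, and in each of its 6 pairs more of them lay below than above the split. In the 15 pairs without K562 more lay above.

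Among regions of all lines the highest mean percentile, 97.6, belonged to 50353574 to 50357341 in 22q13.33, the band of the serine/threonine kinase gene PIM3. It was followed by 41486860 to 41489314 in 22q13.2 (89.3), the band of the acetyltransferase gene EP300 and the Polycomb-group gene L3MBTL2, and by 46545064 to 46547561 in 22q13.31 (88.9). The fourth was the region beside the split (83.9), and the fifth lay from 22087680 to 22091041 in 22q11.21 (83.8). K562 scored 280.26, 75.98 and 120.03 in the first 3, which lie above the split, and 1594.88 and 1107.42 in the last 2, which lie below it. SUP-B15 scored 1172.16, 454.25 and 164.09 above and 141.64 and 77.2 below. Each of the last 2 scored higher than the first 3 in K562 alone, and lower in SUP-B15, DND41, JURKAT and SIL-ALL. In REH and HPB-ALL the scores of the 2 sets overlapped.

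Regions of all 4 T-ALL lines and no other numbered 11 of 907 on the chromosome, 1.21% (Wilson 95% interval 0.679 to 2.16%), against 2.25% over the genome. All 11 were among the 697 regions above the split (1.58%, 0.883 to 2.80%), and 0 of 210 below it allows up to 1.796% by the same interval. By mean percentile the first were in 22q13.2, at 42228885 to 42230346 (87.8), 41031993 to 41033143 (82.0) and 42016567 to 42017229 (66.5). Regions of both B-ALL lines alone were led by 42321694 to 42322719 in 22q13.2 (mean percentile 96.5), 18592801 to 18593943 in 22q11.21 (91.9) and 46440715 to 46441193 in 22q13.31 (82.1). The 1 region of K562, REH and SUP-B15 without any T-ALL line lay at 42309861 to 42311528 in 22q13.2. It is a site above the split at which K562 had a high score, 353.78.

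The strongest regions of single lines were divided in the same way. Those of K562 lay in 22q11.21, at 19700883 to 19703231 (score 519.94) and 18957655 to 18958660 (410.16). Those of the other 6 lines all lay above the split: in 22q13.31 in REH (44678220 to 44678748 and 44680556 to 44680981), in 22q13.33 in SUP-B15 (50929231 to 50929723 and 50360996 to 50361437) and in 22q12.1 in DND41 (29469505 to 29469869 and 29469243 to 29469487). In HPB-ALL they lay in 22q13.2 (41633702 to 41634277) and 22q11.23 (24896057 to 24896460), and in JURKAT in 22q12.2 (29704594 to 29705108 and 30794679 to 30795226). In SIL-ALL both lay in 22q12.3 (32598804 to 32599535 and 32600179 to 32600801), in the bin in which SIL-ALL exceeded the other lines.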

How the data were processed

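KDM2B ChIP-seq peak lists of 7 leukaemia lines were analysed, 1 list per line. The deposited lists give hg19 positions, a MACS-style name and a score per peak, which the authors' peak caller assigned. FastQC 0.10.1, Bowtie 1.1.1 and hg19 are named in the submitters' processing notes. Not given in the sources used here are the peak caller's version, control, threshold and read depth. The lowest scores of the lists ran from 50 to 80.03, so scores were compared only as percentiles within a list.

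Peaks were placed by midpoint in 2 Mb bins and at the 23.6 Mb split, and regions were peaks merged at 1 bp overlap. Bins needed at least 20 peaks over the lists. Bands came from the hg19 table of circlize 0.4.16. Lines were the units of exact permutation tests (21 splits, or 128 sign changes), with Benjamini-Hochberg adjustment over 8 comparisons and a threshold of 0.05. Intervals are Wilson 95% intervals. Python 3.11.15, numpy 2.4.6, pandas 2.3.3, scipy 1.17.1 and matplotlib 3.10.9 were used, and the bin calls were tested on simulated data. Regions were named by rule: within 0.5 Mb of the split if K562, SUP-B15 or 2 or more lines had a peak, and otherwise by mean score percentile, the 5 highest of all lines, the 3 highest of T-ALL lines, B-ALL lines, K562 with SUP-B15, and K562 with REH and SUP-B15, and the 2 highest of each line alone. Members, lists and comparisons were chosen with earlier results of these data known. Alternatives were equal list lengths, a common score floor, merging within 500 bp, a shifted split or bin, 1 Mb bins, a bin minimum of 10, 50% reciprocal overlap and leaving out each line.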

Additional observations from a re-analysis of the deposited data

Results flagged for a closer look

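Of 27 values examined over the 7 lines, 11 had a line far from the rest relative to the range of all lines, where chance gives about 1.35, and 10 of the 11 were K562. These values share the same peaks and are not independent.

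K562 was far above the others in the share of chromosome 22 peaks below the split (79.2%, next JURKAT at 26.2%), in median peak width on the chromosome (960 bp, next SUP-B15 at 348.5 bp) and in median width below the split (1165 bp, next SUP-B15 at 336 bp). It was also far above them in width on the chromosome minus the rest of its list (415 bp, next SIL-ALL at 33.5 bp) and in width below minus above the split (787 bp, next JURKAT at 50 bp). In the share of peaks in regions of 2 or more lines, below minus above the split, K562 was far below the others (-39.3 points, next JURKAT at 4.10).

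By bin, K562 was far above the other lines from 18 to 20 Mb (0.825% of its list, next SIL-ALL at 0.222%), from 20 to 22 Mb (1.11%, next JURKAT at 0.236%) and from 22 to 24 Mb (0.707%, next REH at 0.160%). It was far below them from 30 to 32 Mb (0.0505%, next SUP-B15 at 0.173%). SIL-ALL was far above the others from 32 to 34 Mb (0.144%, next DND41 at 0.0535%).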

How the results depend on the processing

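The K562 share below the split was 83.5% with a common score floor and 77.3% with merging within 500 bp. It was 75.4% with a split 0.1 Mb lower and 91.9% by covered bases. Equal lists and a split 0.1 Mb higher could not change it. The K562 list is the shortest, and K562 has no peak from 23.6 to 23.7 Mb. The K562 difference at shared sites (78.3 points) was 88.9 with the floor and -7.37 with 50% reciprocal overlap. The width difference of BCR-ABL1 lines no longer passed unadjusted with equal lists (339 bp) or merging (558 bp), and was 689 bp with the floor at an unchanged p. Score percentile below minus above turned to -0.0290 with equal lists, and chromosome 22 minus rest to 0.509 with the floor and 0.00418 with merging. Shared peaks below minus above turned to -1.57 with reciprocal overlap. All-line regions (18) numbered 6, 4 and 2, and regions of K562 and SUP-B15 alone (2) numbered 1, 0 and 0, with equal lists, the floor and reciprocal overlap. Bins with both BCR-ABL1 lines on one side (2) numbered 6 with 1 Mb bins and 4 as a share of chromosome 22 peaks. The cause of these changes was not tested.

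Leaving out each line gave -3.98 (without K562) to 58.9 points for the share below the split, 0.0912 to 0.575 points for the list share, and 119 to 731 bp for BCR-ABL1 width. With a line left out, the smallest p that the 2-group design allows is 0.0667, or 0.167 without K562 or SUP-B15. The ranges were 0.583 to 72.1 bp for width against the rest, 7.17 to 141 bp for width below minus above, -0.732 to 0.307 for percentile against the rest, 1.053 to 3.601 for percentile below minus above and 4.16 to 11.8 points for shared peaks. Counts ran from 2 to 15 bins, 18 to 33 all-line regions and 2 to 3 regions of the pair. Between lines, no paired analysis was possible because no label pairs one line with another, while the comparisons within a list are paired by line. Depth is unknown, so a missing peak cannot be told apart from low coverage.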
